A study of Rattus norvegicus with 18 samples.

Results

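Genes of neurogenesis and of immature neurons, Dcx, Ccnd1, Ccnd2, Sox2, Sox4, Sox11, Nes, Neurod1 and Vim, were followed in the rat brain after chronic immobilization stress. They were taken as all probe sets that the platform annotation assigns to 1 of these symbols and to no other gene, which gave 21 of the 31099 probe sets and 9 of the 14218 named genes. Total RNA of amygdala, hippocampus and cortex was measured on 18 arrays, 3 for each region from rats under chronic immobilization stress and 3 from rats that were handled and not stressed. The labels leave out strain, sex, age and the schedule of immobilization, and their source field names the amygdala for every array, so the region is that of the titles. They also do not tie arrays to animals, so all p-values below weigh differences against array-to-array spread only, and that spread may be technical. Each value is a linear probe set intensity, and every array has nearly the same trimmed mean.

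Neural stem cells are marked by the transcription factor Sox2 and by the intermediate filaments nestin (Nes) and vimentin (Vim). The D-type cyclins (Ccnd1, Ccnd2) drive progenitors through the first phase of the cell cycle, and Sox4, Sox11 and the basic helix-loop-helix factor Neurod1 switch their progeny to a neuronal fate. Newborn neurons then carry doublecortin (Dcx), a microtubule-binding protein of migrating cells. In the adult rat hippocampus this sequence runs in the dentate gyrus, and immature neurons with doublecortin also lie in and near the amygdala and in the piriform cortex. None of these genes is confined to new neurons: Sox2 and Vim are also made by astrocytes, Vim and Nes also by vessel walls and meninges, and Neurod1 also by mature neurons. The samples are whole tissue, in which fewer cells of a type and less RNA per cell cannot be told apart.

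Of the 21 probe sets, 16 passed the filter on mean intensity (at least 31.7, the 40th percentile) and were tested. They covered 8 genes, with 5 probe sets for Sox4, 3 for Ccnd1, 3 for Sox2 and 1 each for Ccnd2, Dcx, Neurod1, Sox11 and Vim. The 5 that were not tested were the single probe set of Nes, 1 of 2 of Dcx, 1 of 4 of Sox2 and 2 of 7 of Sox4. The untested Dcx and Sox2 probe sets lay at or under 5.29 on all arrays, so Dcx rests on 1 probe set only. Changes are log2 differences of the intensity plus 16 with their standard error from limma, adjusted by Benjamini-Hochberg over all 18625 probe sets and called at an adjusted p below 0.05.

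Each array correlated with the others of its group at a mean Spearman coefficient of 0.934 to 0.969. Among handled arrays 5 of 8 tested hippocampus markers were called higher in hippocampus than in cortex and 2 lower. Amygdala and cortex were less clearly parted by their markers. Of 11 amygdala markers 5 were called higher in amygdala than in cortex and 2 lower, and of 14 neocortex markers 3 were called lower and 6 higher.

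The handled arrays gave the levels without stress. Neurod1 had the clearest order of regions. Its intensities were 319.5, 348 and 349 in hippocampus, 143, 124 and 145 in cortex and 81.0, 63.6 and 60.8 in amygdala, so that no 2 regions overlapped. Hippocampus exceeded cortex by 1.21 ± 0.13 (adjusted p = 1.87e-07), and amygdala lay below cortex by a log2 difference of -0.87 ± 0.13 (adjusted p = 6.3e-05). Ccnd2 was likewise brightest in hippocampus, at 746, 747 and 707, against 386, 449 and 406 in amygdala and 419.8, 458 and 414 in cortex. The hippocampal excess over cortex was 0.75 ± 0.12 (adjusted p = 3.82e-05), while amygdala and cortex overlapped and their difference of -0.06 ± 0.12 (95% interval -0.31 to 0.19) was not called.

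Ccnd1 followed another order and was brightest in amygdala. Its brightest probe set, 1383075_at, read 260.5, 237 and 245 there, 112, 131 and 123 in hippocampus and 100.1, 140.04 and 148 in cortex. Amygdala exceeded cortex by 0.87 ± 0.18 (adjusted p = 0.0018) and hippocampus by 0.94 ± 0.18 (adjusted p = 0.000392), and hippocampus and cortex overlapped. The probe set 1371643_at was called in the same direction against both (0.65 ± 0.17 and 0.47 ± 0.17), but the first call was lost without amygdala handled 1 or cortex handled 3 and the second in 10 of 28 alternative analyses. An index of RNA integrity, the log2 excess of 3′ over 5′ signal of the hexokinase control probe sets, was also used as a covariate. With it, amygdala minus cortex was no longer called for 1383075_at (0.72 ± 0.25, adjusted p = 0.0854) or for 1371643_at (0.64 ± 0.23, adjusted p = 0.104). The index averaged 0.91 in handled amygdala and 1.21 in handled cortex. The same index from GAPDH (0.45 against 0.29) and from beta-actin (2.08 against 1.67) lay the other way between these regions. The dimmest, 1371150_at, was not called (0.37 ± 0.19 and 0.20 ± 0.19).

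The 2 SOXC factors, which bind the same DNA motif, had different orders. Sox4 (1383137_at) was highest in cortex, at 548, 579 and 593, against 501, 433 and 431 in hippocampus and 388, 451 and 409.5 in amygdala. Amygdala differed from cortex by -0.45 ± 0.08 (adjusted p = 0.000445) and hippocampus from cortex by -0.33 ± 0.08 (adjusted p = 0.00427), and amygdala and hippocampus did not differ by test (-0.12 ± 0.08, 95% interval -0.29 to 0.05). The other 4 tested probe sets of Sox4 also lay lower in amygdala than in cortex, without a call. Sox11 was dimmer, with 60.1, 83.4 and 65.3 in amygdala, 42.5, 56.8 and 42.5 in cortex and 28.8, 13.8 and 29.4 in hippocampus. Amygdala exceeded hippocampus by 1.11 ± 0.25 (adjusted p = 0.00137), whereas amygdala against cortex was not called (0.43 ± 0.25, 95% interval -0.08 to 0.95) although those arrays did not overlap. Hippocampus lay below cortex by -0.68 ± 0.25 with an adjusted p of 0.0464, a call that was lost in 16 of 27 alternative analyses.

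Of the stem cell genes, the brightest Sox2 probe set, 1379942_at, read 907, 880.4 and 759 in amygdala, 767, 785 and 824 in cortex and 677, 694 and 688 in hippocampus, and amygdala exceeded hippocampus by 0.30 ± 0.07 (adjusted p = 0.00398). Its hippocampus minus cortex value of -0.20 ± 0.07 (adjusted p = 0.0493) lost its call in 19 of 28 alternatives. The probe set 1381874_at was higher in amygdala than in cortex (0.59 ± 0.18, adjusted p = 0.0265), a call lost without amygdala handled 1 or 3 or cortex handled 2 or 3 and with the hexokinase covariate (0.39 ± 0.23, adjusted p = 0.382). Vim was highest in cortex (454, 481 and 496), then amygdala (338, 390.4 and 385), then hippocampus (272, 327 and 294), with each neighbouring pair called. The values were -0.35 ± 0.10 for amygdala minus cortex (adjusted p = 0.0233) and 0.30 ± 0.10 for amygdala minus hippocampus (adjusted p = 0.0319). The first was lost without amygdala handled 1 or cortex handled 2 or 3 (adjusted p up to 0.12), without the variance trend and with the hexokinase covariate (-0.19 ± 0.13, adjusted p = 0.457). The second was lost without amygdala handled 2 or 3 or hippocampus handled 1 or 3 (up to 0.132), with median centring, without the variance trend and with only the arrays of those regions, whereas hippocampus minus cortex (-0.66 ± 0.10) held in all 28 alternatives. Nes read 38.2, 14.2 and 5.32 in amygdala, 63.2, 36.6 and 44.2 in hippocampus and 30.2, 26.1 and 33.3 in cortex, which is too dim and scattered to order. Dcx overlapped in all regions, at 101, 84.0 and 80.8 in amygdala, 94.3, 54.1 and 54.9 in hippocampus and 73.6, 95.2 and 64.7 in cortex, and none of its differences was called.

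Counted together, 6 of the 16 probe sets were called between handled amygdala and cortex, where 14.7% of all probe sets were called. Between hippocampus and cortex it was 6 of 16 against 25.9%, and between amygdala and hippocampus 7 of 16 against 28.6%.

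**Figure D1:**
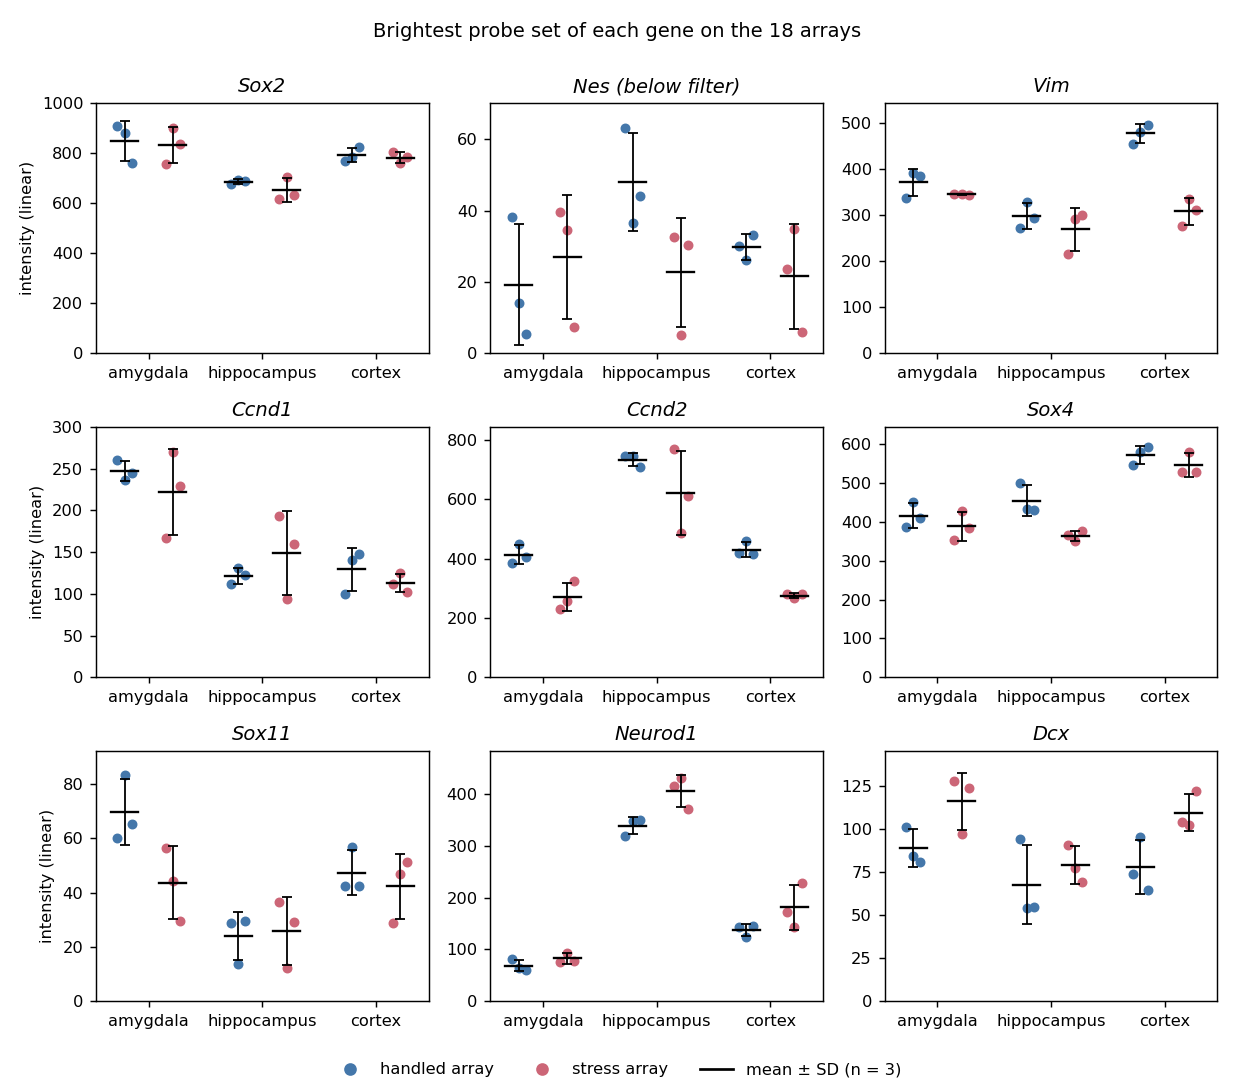
Intensity (linear scale, from 0) of the brightest probe set of each of the 9 genes on the 18 arrays, with handled arrays in blue, stress arrays in red and black bars for the mean ± SD of 3 arrays. Neurod1 and Ccnd2 are highest in hippocampus, Ccnd1 in amygdala and Vim in handled cortex, and the stress arrays of Ccnd2 lie below the handled ones in amygdala (230.5 to 323 against 386 to 449) and cortex (266 to 279.6 against 414 to 458).

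Under stress Ccnd2 was called lower in both amygdala and cortex. It encodes cyclin D2, the D-type cyclin of adult hippocampal progenitors. Which cells of these whole tissues carried Ccnd2 was not tested. In amygdala it read 230.5, 256 and 323 on the stress arrays against 386, 449 and 406 on the handled ones (269.9 ± 47.8 against 414 ± 32.6, SD, n = 3). The groups did not overlap and Ccnd2 fell by 0.60 ± 0.12 on the log2 scale (adjusted p = 0.00629). In cortex it read 279.6, 266 and 279.6 under stress against 419.8, 458 and 414, again without overlap, and fell by 0.62 ± 0.12 (adjusted p = 0.0176). In hippocampus, where it was brightest, the stress arrays scattered from 487 through 611 to 769 and overlapped the handled ones (707 to 747), and the difference of -0.26 ± 0.12 was not called (adjusted p = 0.448). The mean over the 3 regions was -0.49 ± 0.07 (adjusted p = 0.000124). The stress effect was not shown to differ between regions: hippocampus minus cortex was 0.36 ± 0.17 (95% interval 0.01 to 0.71, adjusted p = 0.88) and amygdala minus cortex 0.02 ± 0.17 (adjusted p = 0.984). The other cyclin, Ccnd1, was not called in any region on any of its 3 probe sets. Its brightest one differed by -0.17 ± 0.18 in amygdala (95% interval -0.55 to 0.21), 0.21 ± 0.18 in hippocampus (-0.17 to 0.59) and -0.16 ± 0.18 in cortex (-0.54 to 0.22).

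A control on the array moved with Ccnd2. Hexokinase is read by control probe sets at both ends of its transcript, and the log2 excess of the 3′ end over the 5′ end grows as RNA is broken or copied incompletely. It was 1.32 to 1.46 on the stress amygdala arrays and 0.83 to 0.99 on the handled ones, without overlap. In hippocampus it was 1.10 to 1.44 against 1.03 to 1.26, and in cortex 1.24 to 1.49 against 1.10 to 1.31. Among the 3 arrays of a group the order of Ccnd2 and the index varied. Ccnd2 fell as the index rose in stress hippocampus (769 at 1.10, 611 at 1.36 and 487 at 1.44). It did so too in handled cortex (458 at 1.10, 419.8 at 1.23 and 414 at 1.31). In stress amygdala Ccnd2 was highest, 323, at the lowest index, 1.32, and in handled amygdala it was highest, 449, at the middle one, 0.92. In stress cortex it was 279.6 at both 1.24 and 1.49, and in handled hippocampus it was highest, 747, at the highest index, 1.26. The GAPDH control was alike in amygdala (0.45 ± 0.08 under stress, 0.45 ± 0.04 handled), and so was beta-actin (2.16 ± 0.24 against 2.08 ± 0.08). With the hexokinase difference as a covariate, Ccnd2 was -0.16 ± 0.18 in amygdala (adjusted p = 0.96) and -0.47 ± 0.12 in cortex (adjusted p = 0.135). Its mean over regions was then -0.24 ± 0.10 (adjusted p = 0.554), and 1 of all 18625 probe sets was called in amygdala in place of 449. Because the stress and handled amygdala arrays do not overlap in this index, stress and RNA integrity cannot be told apart there. The cortex call of Ccnd2 was also lost without the variance trend and when any 1 of the 6 cortex arrays was left out (adjusted p up to 0.104), while its amygdala call held in 28 of 29 alternatives.

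**Figure D2:**
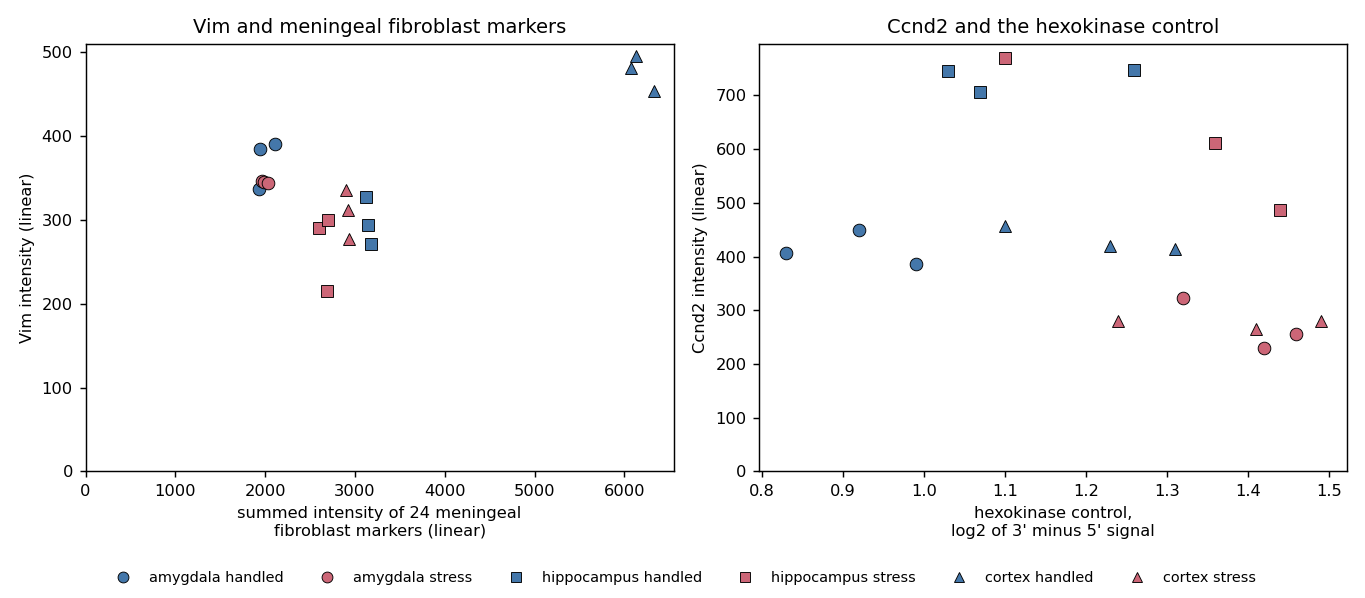
Left, Vim intensity against the summed intensity of 24 meningeal fibroblast markers, both on linear scales from 0; right, Ccnd2 intensity against the log2 excess of the hexokinase 3′ end over its 5′ end. Each point is 1 array, with the shape for the region and the colour for the treatment; handled cortex stands apart at a summed marker intensity of 6072 to 6330.0, and the stress amygdala arrays stand to the right of the handled ones, at 1.32 to 1.46 against 0.83 to 0.99.

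Vim, the intermediate filament of radial glia-like stem cells, fell in cortex. It read 277, 336 and 312 on the stress arrays and 454, 481 and 496 on the handled ones (308 ± 29.6 against 477 ± 21.2, SD, n = 3), without overlap, and fell by 0.61 ± 0.10 (adjusted p = 0.00478). In amygdala the stress arrays at 346, 345 and 344 lay within the range of the handled ones (-0.10 ± 0.10, adjusted p = 0.748; -0.35 ± 0.17 with the hexokinase covariate, adjusted p = 0.847). In hippocampus 216, 291 and 300.1 overlapped 272, 327 and 294 (-0.15 ± 0.10, adjusted p = 0.649). The difference of the stress effect between regions did not pass, at 0.51 ± 0.15 for amygdala minus cortex (95% interval 0.21 to 0.82, adjusted p = 0.218) and 0.46 ± 0.15 for hippocampus minus cortex (adjusted p = 0.625). The mean over regions was -0.28 ± 0.06 (adjusted p = 0.00612), and -0.43 ± 0.10 with the hexokinase covariate (adjusted p = 0.109). The cortex call was lost without cortex stress 1 (adjusted p = 0.0576) and held in the other 28 alternatives, the hexokinase covariate included (-0.70 ± 0.11, adjusted p = 0.00304).

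Vimentin is also a protein of fibroblasts, and markers of the meninges moved with it. Of 25 listed meningeal fibroblast markers 24 were on the array and 19 were tested. All 19 lay below 0 in stress cortex, 8 were called lower and 0 higher, and their median was -0.73 against 0.00 for all tested probe sets. The largest were Igf2 (-1.53 ± 0.12), Col1a2 (-1.44 ± 0.16), Igfbp2 (-1.28 ± 0.12) and Col3a1 (-1.22 ± 0.16). The summed intensity of the 24 markers was 6072 to 6330.0 in handled cortex and 2898 to 2937 in stress cortex. It was 1930.4 to 2105 in handled and 1966 to 2034 in stress amygdala, and 3119 to 3174 in handled and 2605 to 2702 in stress hippocampus. No marker of the list was at 0, though the dimmest read 1.47 on 1 stress cortex array. Of 17 tested endothelial and mural markers 14 lay below 0 in cortex, with Myl9 called (-0.90 ± 0.20), and of 13 astrocyte markers 0 were called there by limma, with 2 at an unadjusted p below 0.05 and a median of 0.00. The part of the meningeal and vascular markers in the fall of Vim was not tested. Of 10 other tested genes of intermediate filaments 8 lay below 0 in cortex and 0 were called by limma in any region, with 3 at an unadjusted p below 0.05 in cortex, while Plec, the cytoskeletal linker plectin, was lower in the mean over regions (-0.34 ± 0.07, adjusted p = 0.00556). Nes, below the filter, read 23.7, 35.0 and 5.90 in stress cortex and 30.2, 26.1 and 33.3 in handled cortex.

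The probe sets of Sox2 disagreed. The brightest, 1379942_at, overlapped between stress and handled in every region, and its differences were -0.03 ± 0.07 in amygdala (95% interval -0.18 to 0.13), -0.08 ± 0.07 in hippocampus and -0.02 ± 0.07 in cortex. The dimmer 1375153_at read 36.8, 59.4 and 52.5 in stress amygdala against 80.9, 96.0 and 93.8, without overlap, and was lower by -0.71 ± 0.19 (adjusted p = 0.0445). That call was lost in 19 of 28 alternatives, 12 of which left out 1 array, among them amygdala stress 1 or 3 or any handled amygdala array. The third, 1381874_at, read 78.6, 112 and 131 in stress amygdala against 171, 157 and 194, and 89.8, 73.6 and 95 in stress hippocampus against 176, 102 and 135. Neither pair of groups overlapped, yet neither difference passed (-0.64 ± 0.18, adjusted p = 0.0558, and -0.56 ± 0.18, adjusted p = 0.207). Averaged over regions both dim probe sets fell, by 0.49 ± 0.10 for 1381874_at (adjusted p = 0.00555) and by 0.41 ± 0.11 for 1375153_at (adjusted p = 0.0266), and the bright one did not pass (-0.04 ± 0.04, 95% interval -0.13 to 0.05). The call of 1375153_at was lost without hippocampus stress 2, amygdala handled 2 or 3, cortex stress 3 or cortex handled 3 (adjusted p up to 0.0692). With the hexokinase covariate neither dim probe set was called (-0.31 ± 0.17 and -0.41 ± 0.19), and the bright one was at -0.22 ± 0.12 in amygdala and -0.15 ± 0.07 in the mean, without a call. The part of the transcript that each probe set reads was not used here, so no direction is given for the gene.

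**Figure D3:**
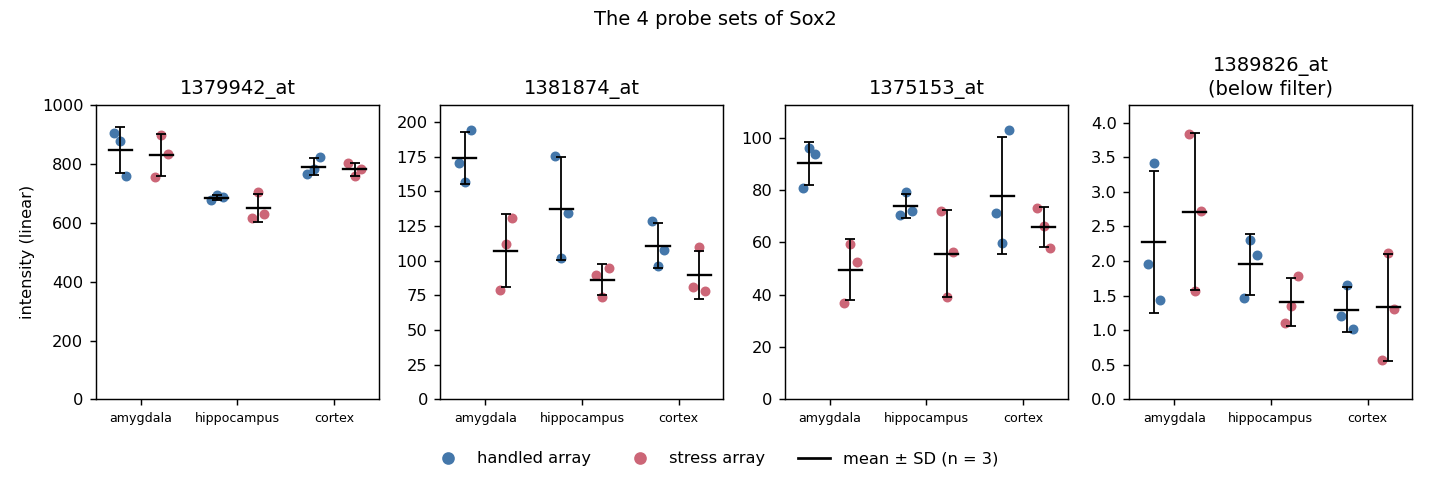
Intensity (linear scale, from 0) of the 4 probe sets of Sox2 on the 18 arrays, handled in blue, stress in red, with mean ± SD of 3 arrays in black. The bright probe set 1379942_at overlaps between treatments in each region, while 1381874_at and 1375153_at lie lower on the stress amygdala arrays.

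Sox4 and Sox11, which promote the neuronal programme of newborn cells, were not called under stress on any probe set. Sox4 1383137_at read 366, 351 and 377 in stress hippocampus against 501, 433 and 431, without overlap, a difference of -0.30 ± 0.08 with an adjusted p of 0.121. Its 4 other tested probe sets also lay below 0 there, from -0.23 ± 0.28 to -0.63 ± 0.34. In amygdala and cortex 1383137_at differed by -0.09 ± 0.08 and -0.07 ± 0.08. Sox11 read 56.5, 44.4 and 29.7 in stress amygdala against 60.1, 83.4 and 65.3, again without overlap, a difference of -0.54 ± 0.25 (adjusted p = 0.334, 95% interval -1.05 to -0.03). With the hexokinase covariate this difference was 0.29 ± 0.39. In hippocampus (0.05 ± 0.25) and cortex (-0.13 ± 0.25) the Sox11 arrays overlapped.

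Neurod1 and Dcx, the later genes of the sequence, lay above 0 in all 3 regions. Neurod1, which granule cells keep expressing as they mature, read 415, 432 and 371 in stress hippocampus against 319.5, 348 and 349, without overlap. It read 173, 143 and 229 against 143, 124 and 145 in cortex, and 75.3, 94.0 and 78.6 against 81.0, 63.6 and 60.8 in amygdala, where the groups overlapped. No single region passed (0.25 ± 0.13 in hippocampus, 0.34 ± 0.13 in cortex and 0.23 ± 0.13 in amygdala), but the mean over regions rose by 0.27 ± 0.08 (adjusted p = 0.0429). This call was lost in 18 of 28 alternatives, 13 of which left out 1 array, and all 28 values lay between 0.21 and 0.32. Dcx read 104, 102 and 122 in stress cortex against 73.6, 95.2 and 64.7, without overlap, and 128, 97.1 and 124 in stress amygdala against 101, 84.0 and 80.8. In hippocampus 90.8, 77.4 and 69.0 overlapped 94.3, 54.1 and 54.9. Its differences of 0.43 ± 0.17, 0.33 ± 0.17 and 0.21 ± 0.17 were not called, nor was their mean of 0.32 ± 0.10 (95% interval 0.12 to 0.53, adjusted p = 0.0633), which passed in 3 of 28 alternatives. With the hexokinase covariate Dcx was at 0.85 ± 0.28 in amygdala (adjusted p = 0.626), 0.40 ± 0.18 in hippocampus, 0.61 ± 0.18 in cortex and 0.62 ± 0.16 in the mean (adjusted p = 0.162), again without a call.

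Markers of other cell types moved in hippocampus. There the stress and handled arrays of Sox4 1383137_at, Neurod1 and Sox2 1381874_at did not overlap, but no difference was called. The summed intensity of 13 choroid plexus and ependyma markers was 4030.4 to 4236 under stress against 1769.5 to 1932, and 2 of the 10 tested were called higher. The list did not rise as a whole: 5 of the 10 lay above 0 and 5 below, with a median of 0.01. All 12 tested markers of myelinating oligodendrocytes lay below 0, 2 were called lower, and their median was -0.23 against 0.00 over all tested probe sets. The part of these markers in the hippocampal values was not tested.

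The RefSeq promoter table (GRCr8) held 6 of the 9 genes: Dcx, Sox2, Sox11, Nes, Neurod1 and Vim. Ccnd2, which like Vim fell in cortex, had no entry. The 250 bases before the annotated start are shown for Vim and for the later genes Neurod1 and Dcx, which lay above 0 in every region. Each GC box (GGGCGG on either strand) is in capitals.
Vim, chr17:81577011-81577260, plus strand: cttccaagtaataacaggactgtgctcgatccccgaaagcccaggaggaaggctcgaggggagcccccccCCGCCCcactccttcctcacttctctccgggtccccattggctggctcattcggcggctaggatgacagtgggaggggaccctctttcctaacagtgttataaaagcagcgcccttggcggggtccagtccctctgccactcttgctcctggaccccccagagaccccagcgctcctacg
Neurod1, chr3:84770455-84770704, minus strand: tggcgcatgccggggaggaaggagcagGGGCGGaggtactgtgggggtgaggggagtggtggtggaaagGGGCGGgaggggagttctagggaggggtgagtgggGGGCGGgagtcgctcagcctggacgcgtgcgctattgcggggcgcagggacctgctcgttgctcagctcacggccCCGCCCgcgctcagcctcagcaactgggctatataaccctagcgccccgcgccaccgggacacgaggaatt
Dcx, chrX:112304162-112304411, minus strand: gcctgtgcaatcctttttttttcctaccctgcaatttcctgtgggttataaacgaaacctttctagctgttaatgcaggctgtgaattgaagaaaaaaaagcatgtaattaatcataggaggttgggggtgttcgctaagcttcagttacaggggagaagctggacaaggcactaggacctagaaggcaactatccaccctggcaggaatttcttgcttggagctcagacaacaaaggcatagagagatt
The GC content of these windows was 62.4% for Vim, 69.2% for Neurod1 and 44.0% for Dcx, against a median of 52.0% over 27457 promoters. The GC box occurred 4 times for Neurod1, 1 time for Vim and 0 times for Dcx, in 5 of the 6 genes in all, and in 32.4% of all promoters. The TATAAA form of the TATA box was found, at any place in the window, for Vim and Dcx and in 13.1% of promoters. Other forms and the distance from the start were not weighed. An E-box (CANNTG) was found for Sox2, Sox11 and Neurod1 and in 65.2% of promoters. Its form CAGATG, which NEUROD1 binds, was in 0 of the 6 windows and in 13.7% of promoters. One form of the SOX core motif, ACAAT, was also in 0 of the 6 and in 29.6% of promoters. Other forms of the SOX motif were not searched. The half-site of the glucocorticoid receptor (AGAACA), which mediates part of the response to stress hormones, was in none of the 6 windows and in 17.1% of all. These letters are matches in a short window and say nothing of binding.

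In amygdala 2 of the 16 probe sets were called, both lower, where 2.41% of all probe sets were called and 1.95% were lower. In cortex 2 were called, both lower, against 0.387% called and 0.263% lower among all. Without cortex stress 1 neither of these 2 was called. In hippocampus 0 were called by limma against 0.365%, with 4 at an unadjusted p below 0.05. The medians of the 16 differences were -0.10, -0.14 and -0.22 in amygdala, cortex and hippocampus, beside 0.01, 0.00 and 0.00 over all tested probe sets. These medians count each probe set of a gene separately, 5 of them for Sox4, so they are not medians over genes. In hippocampus all 5 of Sox4 lay below 0. The brightest probe sets of Dcx, Ccnd1, Sox11 and Neurod1 lay above 0 there, and those of Ccnd2, Sox2, Sox4 and Vim below. In the mean over regions 4 were lower and 1 higher, against 4.66% called in all, 3.07% lower and 1.59% higher. These 5 covered 4 genes, with the dim Sox2 probe sets 1381874_at and 1375153_at both among the lower ones. With the hexokinase covariate 0 of the 16 were called in the mean. No probe set of the 9 genes was called for a difference of the stress effect between regions (0.129% called in all for amygdala minus cortex, 0.0859% for hippocampus minus cortex and 0.0376% for amygdala minus hippocampus), with 1, 2 and 1 at an unadjusted p below 0.05.

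**Figure D4:**
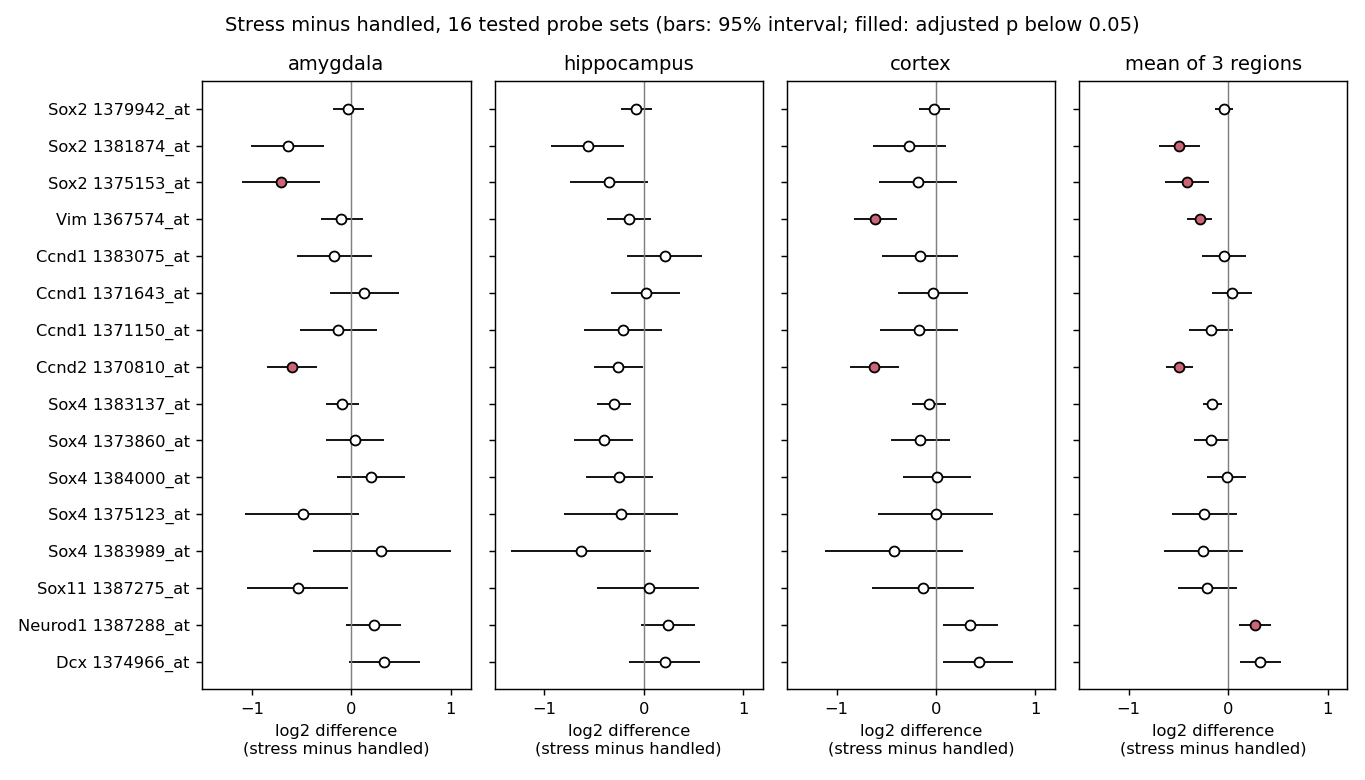
Log2 difference, stress minus handled, of the 16 tested probe sets in each region and in the mean over the 3 regions, with 95% intervals and filled points for an adjusted p below 0.05. Filled points are Ccnd2 and Sox2 1375153_at in amygdala and Ccnd2 and Vim in cortex, all below 0. In the mean, Ccnd2, Vim and the Sox2 probe sets 1381874_at and 1375153_at are filled below 0 and Neurod1 above 0.

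The wider pathway was followed in lists of other genes. Of 25 tested stem and progenitor genes, 1 was lower in amygdala, the helix-loop-helix inhibitor Id2 (-0.37 ± 0.08, adjusted p = 0.0101), where 2.41% of all probe sets were called, and 0 were called by limma in hippocampus or cortex, with 8 and 5 at an unadjusted p below 0.05. In the mean over regions Id2 (-0.28 ± 0.05) and the epidermal growth factor receptor Egfr (-0.39 ± 0.11) were lower and the astroglial glutamate transporter Slc1a3 was higher (0.13 ± 0.03), which made 3 of 25 called against 4.66% of all probe sets. Of 37 neuroblast and immature neuron genes 4 were lower in amygdala, against 1.95% of all probe sets: Neurod2, a relative of Neurod1 that acts in maturing neurons (-0.70 ± 0.15), Reln (-0.47 ± 0.07), which guides migrating neurons, Ncam1 (-0.40 ± 0.11), the carrier of polysialic acid, and the RNA-binding Elavl2 (-0.37 ± 0.07), which the naming rule left out and was added after its values were seen. The median of that list in amygdala was -0.03 against 0.01 over all tested probe sets. In hippocampus and cortex 0 of the 37 were called by limma, with 4 and 5 at an unadjusted p below 0.05. Of 20 tested cell cycle genes 0 were called by limma in any region or in the mean, with 1 in each region and 2 in the mean at an unadjusted p below 0.05, and the list's medians lay between -0.05 and 0.01. Of 26 growth factors and receptors of the neurogenic niche only Il6st, the signalling subunit of the interleukin-6 family receptors, was called. It was lower in amygdala (-0.36 ± 0.09), against 1.95% of all probe sets, and in the mean over regions (-0.18 ± 0.05), against 3.07%. With the hexokinase covariate 1 of all 18625 probe sets was called in amygdala in place of 449. In the mean over regions 11 were then called in place of 868. The list genes were not followed singly in that fit. In amygdala, where Ccnd2 and the called genes of these lists were lower, striatal neuron markers moved as well. Of these, 11 of 11 lay above 0 and 3 were called higher. Their summed intensity was 5219 to 5498 under stress against 4017 to 4370.0. The part of tissue composition in these falls was not tested.

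Genes most like each member over the 18 arrays were found by the Pearson correlation of log2 values among 10195 named genes, a measure that carries the differences between regions. For Ccnd2 they were Grin2a (0.939) and Suds3 (0.932), and for Neurod1 Htr1a (0.972) and Tuba4a (0.971). Vim was followed most closely by Csrnp2 (0.931) and Mmp17 (0.844), Sox2 by Ttc7b (0.932) and Oprl1 (0.922), and Sox4 by Lcat (0.909) and Plaat1 (0.900). Likeness was lower for Ccnd1, with Odf2 (0.887) and Fndc3b (0.884), for Sox11, with Wdr37 (0.860) and Hs2st1 (0.847), and for Dcx, with Atmin (0.853) and Gpatch11 (0.788).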

How the data were processed

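The authors deposited linear intensities of 31099 probe sets on 18 arrays, whose software is not given in the sources used here. Each array had a trimmed mean (2% off both tails) of 150.04 to 150.05, which shows that the deposited intensities were scaled to a common level. Such scaling hides a change shared by most bright transcripts. No detection calls were used.

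Values were taken as log2(intensity + 16), which shrinks the differences of dim probe sets. The 57 control probe sets and those with a mean under the 40th percentile were left out. Group means of all 18 arrays were fitted with limma 3.58.1 in R 4.3.3 (variance trend, 12 residual and 10.1 prior degrees of freedom), two-sided, with Benjamini-Hochberg adjustment over 18625 probe sets. An exact permutation test of 3 against 3 arrays could not go below 0.1. Lists use the brightest probe set of a gene. The fit was tested on simulated data. Named are all members, up to 3 called genes per list and direction, up to 4 cell type markers beside a member, and the 2 genes most alike. Members and lists were chosen with earlier results of these data known. Alternatives changed the offset, filter, scaling, variance model, arrays fitted, replicate block and an RNA integrity covariate, and left out each array in turn. Positions of probe sets in transcripts were not used here.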

Additional observations from a re-analysis of the deposited data

How the results depend on the processing

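The counts of called probe sets of the 9 genes moved with several alternatives. In amygdala 2 were called under stress, against 1 with an offset of 1, with no filter, with the filter at the 60th percentile, without the variance trend, with the replicate block or with only the amygdala arrays, and 0 with the hexokinase covariate; leaving out 1 array gave 1 to 3. In cortex 2 were called, against 1 without the variance trend and 1 with the hexokinase covariate, and 0 to 2 with 1 array left out. The mean over regions had 5, against 3 with no filter and 0 with the hexokinase covariate, and 3 to 6 with 1 array left out. Handled amygdala against cortex had 6, against 2 with the hexokinase covariate and 3 to 6 with 1 array left out. The 4 comparisons without a call had 0 in every alternative, and the counts of the remaining comparisons stayed within 1.5 times. Falls of Ccnd2 in amygdala (-0.73 to -0.16 over 29 alternatives) and of Vim in cortex (-0.70 to -0.54) kept their sign.

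Signs turned only for values that were not called. With the hexokinase covariate Ccnd1 1383075_at became 0.08 in amygdala and 0.10 in the mean, and Sox11 0.29 in amygdala, 0.15 in cortex and 0.26 in the mean; with median centring Sox2 1379942_at in cortex became 0.00. With 1 array left out, Sox2 1379942_at ranged from -0.11 to 0.04 in amygdala and -0.04 to 0.01 in cortex, Ccnd1 1383075_at from -0.31 to 0.01 in amygdala and -0.10 to 0.05 in the mean, and Sox11 from -0.15 to 0.31 in hippocampus and -0.25 to 0.05 in cortex. The cause was not tested.

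No pairing of the arrays by the replicate numbers of the titles was detected. Deviations of same-numbered arrays of a region correlated between -0.033 and 0.009 over 9 pairs, and those of different regions between -0.044 and 0.099 over 36 pairs. With 3 arrays a group this does not show that the arrays are unpaired. With the replicate block 422 probe sets of all were called in amygdala, 60 in hippocampus and 54 in cortex, in place of 449, 68 and 72. With 3 arrays a group the number of arrays, and for Nes and Sox11 their low intensity, limit what can be seen.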
